A study of Drosophila melanogaster with 22 samples.

Results

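Transcript levels of whole Drosophila melanogaster embryos of the OregonR strain were compared between late embryos, 16 to 18 h after egg laying, and early embryos, 2 to 4 h after egg laying, with embryos of 6 to 8 h as the middle point. Per the labels' protocols, flies laid for 2 h after an earlier clutch had been discarded, the embryos aged at 25 °C, and messenger RNA was taken from total RNA with oligo(dT) beads. No treatment or allele distinguished the 3 groups, which differ in age, and each group is a mix of all cells of many embryos that span 2 h. The deposited table gave 1 level per gene and stage, in FPKM (fragments per kilobase of transcript, scaled to the mapped fragments), although the sample titles name 2 replicates behind each stage. No spread between replicates and no test between stages could therefore be computed, and "higher" and "lower" describe the listed values.

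Genes were members if their name occurred a single time in the table and they stood at 5 FPKM or more at 16-18 h or at 2-4 h. They numbered 10190 of 13686 such names, or 74.5%. Of these, 6848 reached 5 FPKM at both ends, 2930 at 16-18 h alone and 412 at 2-4 h alone. A gene of the last 2 kinds is a member through the stage at which it was higher, so counts of higher and lower genes are read against the shares among all members and support nothing by themselves. The gene just inside the minimum, CG17625, was listed at 0 at 16-18 h and 5.01 at 2-4 h, and the one just outside, Gr39a, at 4.99 at 16-18 h and 0 at 2-4 h. A further 137 genes reached 5 FPKM at 6-8 h alone and are not members.

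The stages bracket most of embryonic development. Early embryos start out on messenger RNA that the mother loaded into the egg, clear much of it while the zygotic genome switches on, form cells out of a syncytium and lay down the body axes. At 6-8 h the germ band is extended, neuroblasts divide and muscle precursors are set aside, and at 16-18 h muscles, nerves, gut and trachea differentiate and the epidermis secretes the cuticle of the larva. In whole embryos, fewer cells of a type and less RNA per cell cannot be told apart, and a level scaled to the mapped fragments is a share, not an amount per embryo.

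More genes were listed above 0 at 16-18 h than at 2-4 h, 10568 against 8284 names, and genes listed above 0 at both ends were more often lower than higher at 16-18 h as deposited. Of the 10190 members, 4199 were at least 2-fold higher at 16-18 h (41.2%) and 3416 at least 2-fold lower (33.5%), on the scale of log2(FPKM + 1). Of the higher genes, 2172 were listed at 0 at 2-4 h, and of the lower genes 211 were listed at 0 at 16-18 h. Among the 7807 members above 0 at both ends, 2027 were higher (26%) and 3205 lower (41.1%), and their log2 ratios ran from -3.22 at the 5th percentile to 4.88 at the 95th. Their median log2 ratio was -0.58. With the columns scaled to the same upper quartile this median was 0.36, a shift of 0.94, and with columns scaled by their median ratio 0.05, a shift of 0.63, so the balance of higher and lower genes turned with the scaling. With equal upper quartiles 1424 of the 3205 lower genes came within 2-fold. Each column was divided by 1 factor, which moved the log2 ratios upward alike. None of the 2027 higher genes could therefore drop out, and their staying does not show that they are firmer. Ratios of gene groups are for this reason also given relative to the median of all genes.

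With 6-8 h as the middle point, the members were sorted into courses. The naming rule took the genes furthest apart in each list and course, and other genes described here were chosen after their values were seen. A transient peak or dip stood at least 2-fold above or below both ends at 6-8 h. For the other genes at least 2-fold apart between the ends, a rise or fall was early when at least 50% of the log2 difference lay before 6-8 h and late otherwise. Genes within 2-fold over all 3 stages were steady. The late rise held 2708 genes (26.6%), the early rise 1133 (11.1%), the late fall 2382 (23.4%), the early fall 866 (8.5%), the transient peak 520 (5.1%), the transient dip 517 (5.07%) and the steady course 1499 (14.7%), which left 565 others (5.54%). Late-rise genes made up 0.795% of the summed FPKM of members at 2-4 h, 1.24% at 6-8 h and 29.6% at 16-18 h. Late-fall genes made up 36.5% at 2-4 h, 34.1% at 6-8 h and 11.8% at 16-18 h. Steady genes kept between 38.1% and 43.5% of the sum at every stage. Among genes above 0 at all stages, the median share of the log2 difference reached by 6-8 h was 42.9% for higher and 29.5% for lower genes. The interval after 6-8 h was also the longer one.

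**Figure D1:**
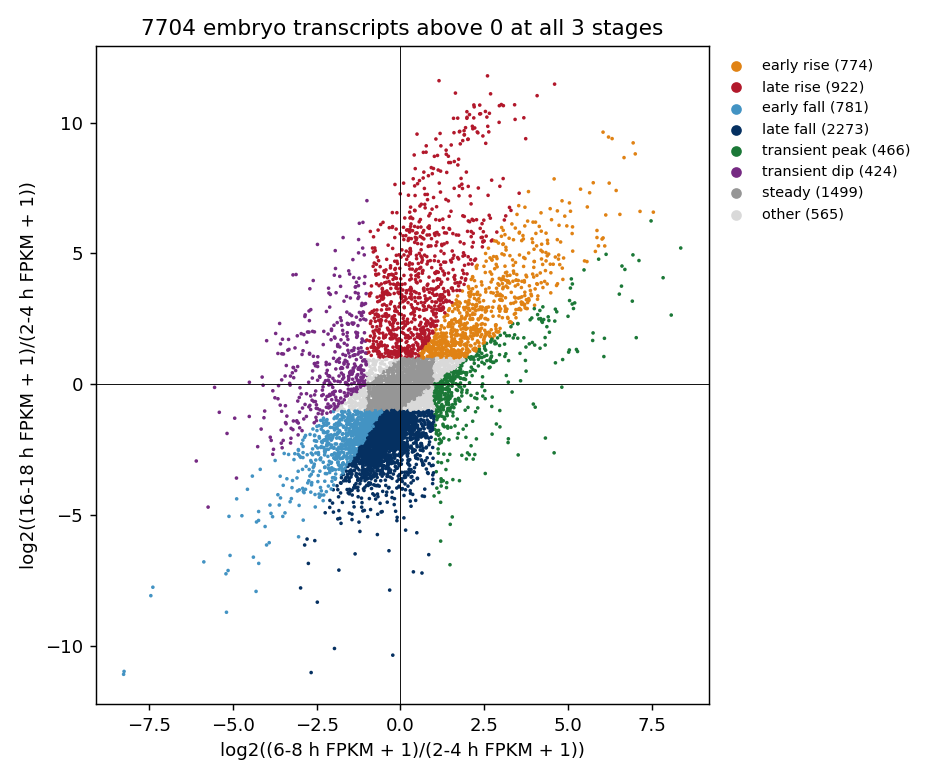
Each point is 1 of 7704 genes above 0 at all 3 stages, with its log2 ratio of 6-8 h to 2-4 h on the x axis and of 16-18 h to 2-4 h on the y axis, coloured by course (plotted genes in brackets). Late rises form the column above the centre that reaches past 10 on the y axis, while falls reach similar depth in few genes.

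Ratios of genes above 0 at both ends and at 10 FPKM or more at one of them were ranked. TwdlF, of the Tweedle family of cuticle proteins, had the largest ratio, with 13930.4 at 16-18 h against 2.94 at 2-4 h (log2 ratio 11.79). The 12 largest ratios also took in Osi20 of the Osiris family (7110.3 at 16-18 h against 2.24 at 2-4 h), the chitin deacetylase gene verm (5183 at 16-18 h against 2.16 at 2-4 h), obst-A, whose product binds chitin (4306 at 16-18 h against 1.69 at 2-4 h), the troponin I gene wupA (6439.6 at 16-18 h against 2.89 at 2-4 h) and the muscle LIM protein gene Mlp60A (15092 at 16-18 h against 8.399 at 2-4 h). Cralbp, named for its likeness to a retinal-binding protein, was among them with 2256 at 16-18 h against 0.00760 at 2-4 h. The others were CG31626, CG31813, CG13159, CG9083 and CG2962, for which no role is given here. All 12 were late rises. At the other end, term had the smallest ratio, with 0.856 at 16-18 h against 4041 at 2-4 h (log2 ratio -11.09). The next 4 were CG10035, CG7271, CG4440 and CG13427, also given no role here. The 12 smallest further took in Sry-alpha, needed for cellularisation, with 8.09 at 16-18 h against 3821 at 2-4 h, the amnioserosa homeobox gene zen with 1.57 at 16-18 h against 555 at 2-4 h, the ecdysone synthesis gene spo with 0.969 at 16-18 h against 475 at 2-4 h and the scavenger receptor gene Sr-CII with 1.501 at 16-18 h against 804 at 2-4 h.

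The stage labels were not checked independently of these ratios. Of 20 chorion, vitelline membrane and yolk protein genes, which mark ovarian follicle cells, 1 passed the minimum, Cp18, with 10.9 at 2-4 h, 6.77 at 6-8 h and 0 at 16-18 h. A low or 0 listing of the others does not show that their transcripts were absent.

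**Figure D2:**
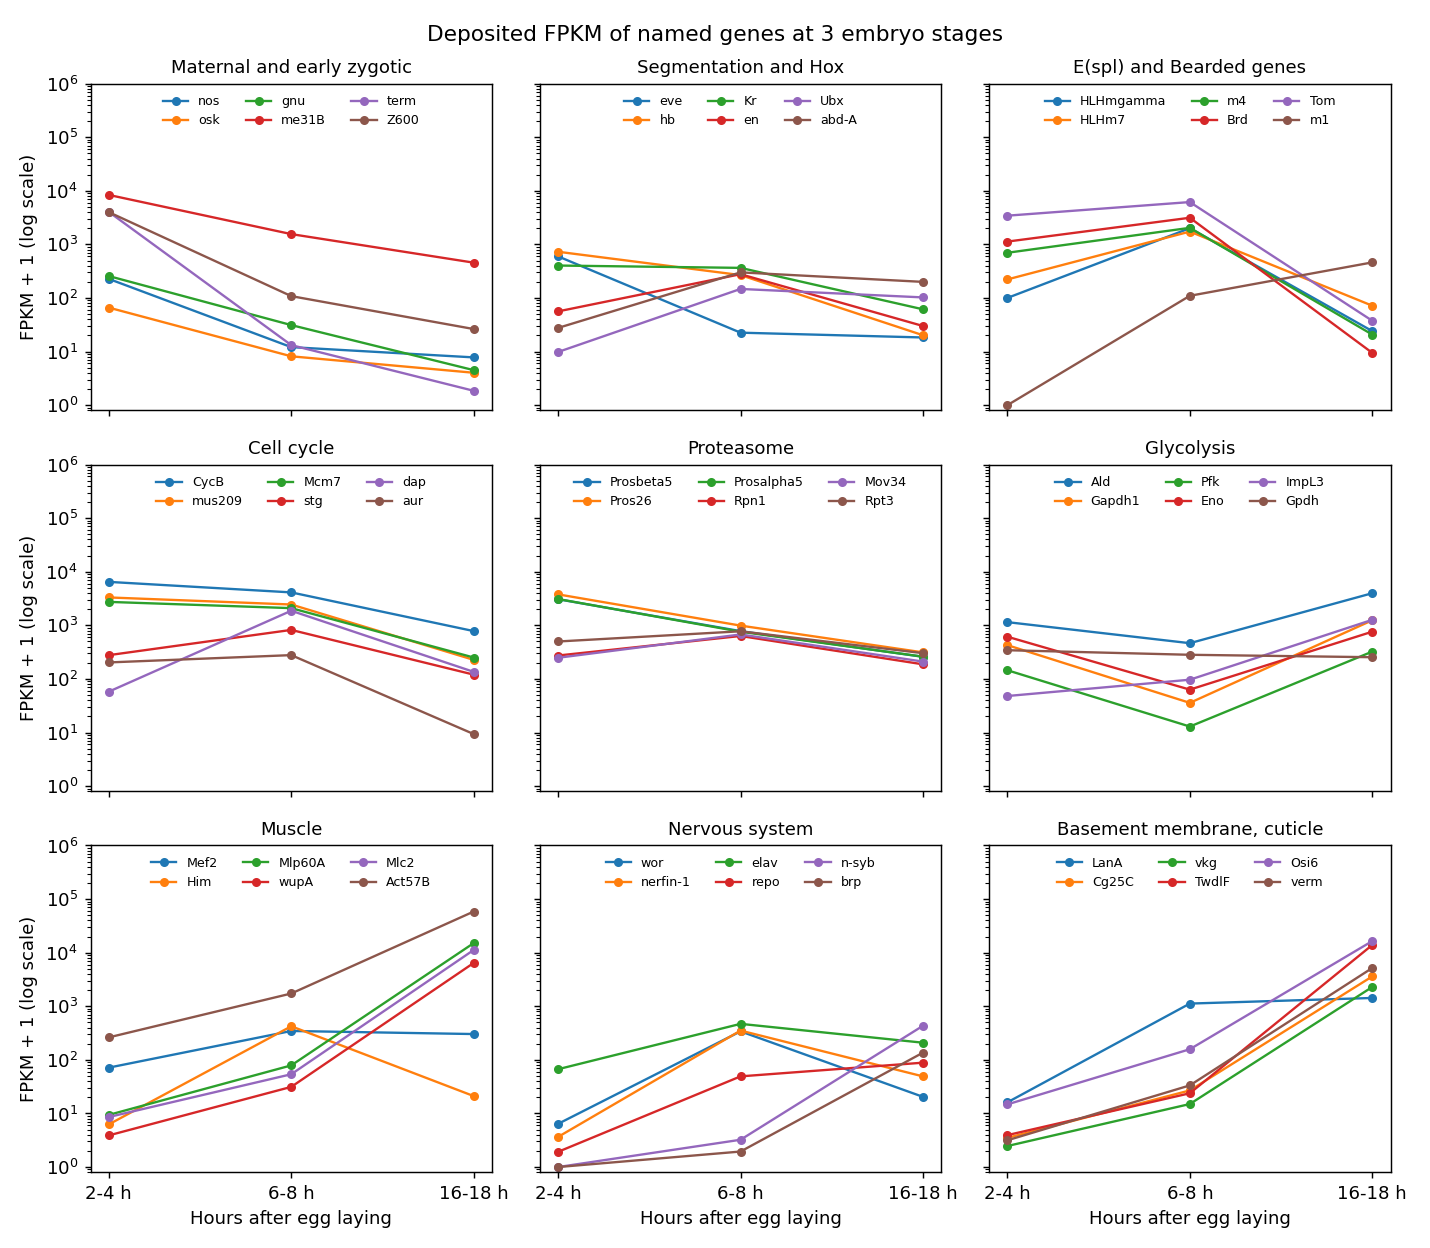
Deposited FPKM plus 1 on a log scale (y axis) at 2-4, 6-8 and 16-18 h after egg laying (x axis) for 6 genes in each of 9 groups, 1 value per point. Maternal, early zygotic and core proteasome genes descend, as do CycB, mus209 and Mcm7, while stg, dap, aur and Mov34 stand highest at 6-8 h. E(spl) and Bearded genes are highest in the middle apart from m1, and glycolytic genes other than ImpL3 and Gpdh dip. Sarcomere, synapse and cuticle genes climb after 6-8 h, while Mef2 and Him do not.

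Genes of the maternal and germline list were mostly lower late, and the early fall was their most common course. The list does not cover every transcript that the mother supplies. Of 37 members of the maternal and germline list, 32 were lower at 16-18 h and 2 higher, against 33.5% and 41.2% of all members, with a median log2 ratio of -2.74 (-2.16 relative to all genes). Early fall took 22 of the 37, against 8.5% of all members. Of the 37, 9 passed the minimum at 2-4 h alone and 1 at 16-18 h alone. The translational repressor gene nos, a posterior determinant, was listed at 226 at 2-4 h, 11.1 at 6-8 h and 6.80 at 16-18 h. Another posterior gene, osk, which assembles the germ plasm, stood at 65.2 at 2-4 h, 7.17 at 6-8 h and 3.03 at 16-18 h. The egg activation gene gnu, whose product partners the Png kinase, stood at 255.7 at 2-4 h, 30.2 at 6-8 h and 3.51 at 16-18 h, and pgc, which silences transcription in germ cells, at 372 at 2-4 h, 16.8 at 6-8 h and 2.82 at 16-18 h. Among abundant messages, me31B, an RNA helicase that represses maternal messages, was listed at 8380.4 at 2-4 h, 1556 at 6-8 h and 456 at 16-18 h.

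Some genes of the maternal and germline list took other courses. The anterior determinant bcd was a late fall, with 282 at 2-4 h, 133 at 6-8 h and 53.0 at 16-18 h, as did smg, whose product drives the clearance of maternal RNA (2028 at 2-4 h, 1303 at 6-8 h and 714 at 16-18 h). The Tudor germ plasm gene tud was higher late, with 39.4 at 2-4 h, 123 at 6-8 h and 169 at 16-18 h, and so was tsl, known for its role in setting the embryo's ends (2.87 at 2-4 h, 16.9 at 6-8 h and 59.1 at 16-18 h). The meiotic gene cort peaked at 6-8 h, with 9.42 at 2-4 h, 68.3 at 6-8 h and 1.78 at 16-18 h, and the germ cell gene gcl ended about where it began, with 436 at 2-4 h, 229 at 6-8 h and 583 at 16-18 h. Of the piRNA pathway genes, aub (309 at 2-4 h, 127 at 6-8 h and 23.4 at 16-18 h), krimp (168 at 2-4 h, 21.4 at 6-8 h and 9.70 at 16-18 h) and AGO3 (428 at 2-4 h, 129 at 6-8 h and 43.6 at 16-18 h) were all lower late.

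Genes of zygotic activation and cellularisation had the lowest median of all lists. Of 14 members 12 were lower late and 2 higher, against 33.5% and 41.2% of all members (median log2 ratio -6.62, or -6.05 relative to all genes), and 4 were listed at 0 at 16-18 h. The mitotic inhibitor gene Z600 was listed at 3999 at 2-4 h, 107 at 6-8 h and 25.3 at 16-18 h. The membrane growth gene slam stood at 3917 at 2-4 h, 110.01 at 6-8 h and 27.2 at 16-18 h, and the actin regulator gene nullo at 425 at 2-4 h, 0 at 6-8 h and 0 at 16-18 h. Halo, which acts on lipid droplet transport, was listed at 3984 at 2-4 h, 59.2 at 6-8 h and 0 at 16-18 h. Elba3 and Elba2, genes of an early insulator complex, also fell, with 2020.1 at 2-4 h, 6.80 at 6-8 h and 0 at 16-18 h for Elba3 (listed as CG15634) and 3131 at 2-4 h, 196 at 6-8 h and 43.3 at 16-18 h for Elba2 (CG9883). The gene insv (CG3227), which is not counted here as part of that complex, stood at 1915 at 2-4 h, 478 at 6-8 h and 63.7 at 16-18 h. The pioneer factor gene zelda, listed as vfl, was lower late by less, with 894 at 2-4 h, 686 at 6-8 h and 185 at 16-18 h, and Ance and bowl were the 2 higher ones, both with transient peaks (Ance at 257 at 2-4 h, 1325 at 6-8 h and 612 at 16-18 h).

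Along the anterior-posterior axis, no gap or pair-rule gene was 2-fold higher late, while most Hox genes were. Of 12 gap genes 11 were lower, against 33.5% of all members, and 9 were late falls, against 23.4% (median log2 ratio -2.82, or -2.24 relative to all genes). The zinc finger gene hb was listed at 728 at 2-4 h, 267 at 6-8 h and 19.2 at 16-18 h, and Kr at 402 at 2-4 h, 364 at 6-8 h and 60.5 at 16-18 h. Kr was thus near its early level at 6-8 h and hb was not. All 9 pair-rule genes were lower (median -3.39, or -2.81 relative to all genes), and 4 were early falls, against 8.5% of all members. The homeobox gene eve stood at 597 at 2-4 h, 21.5 at 6-8 h and 17.3 at 16-18 h, and ftz at 769 at 2-4 h, 98.8 at 6-8 h and 0 at 16-18 h. Of these 9, slp2 alone had a transient peak (77.0 at 2-4 h, 229.6 at 6-8 h and 35.97 at 16-18 h).

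Segment polarity genes keep the borders of segments once these are laid down. Of 13 members 7 had a transient peak, against 5.1% of all members. The homeobox gene en was listed at 55.3 at 2-4 h, 277 at 6-8 h and 29.0 at 16-18 h, the secreted signal gene wg at 100.1 at 2-4 h, 268 at 6-8 h and 49.6 at 16-18 h and the Pax gene gsb at 130.4 at 2-4 h, 387 at 6-8 h and 9.49 at 16-18 h. The Hedgehog receptor gene ptc was a late fall, with 480.02 at 2-4 h, 524 at 6-8 h and 85.9 at 16-18 h. The median ratio of this list between the ends was -0.92 as deposited and 0.00 with equal upper quartiles, so no direction is given for it. Of 9 Hox genes and cofactors in the list, 7 were higher late, against 41.2% of all members, and 6 were early rises, against 11.1% (median log2 ratio 2.53, or 3.10 relative to all genes). Ubx, of the posterior thorax, was listed at 8.84 at 2-4 h, 147 at 6-8 h and 102 at 16-18 h and its neighbour abd-A at 26.7 at 2-4 h, 299.8 at 6-8 h and 199 at 16-18 h. Abd-B, of the posterior abdomen, had a transient peak (22.0 at 2-4 h, 225 at 6-8 h and 105 at 16-18 h). Dfd, a head gene, was steady at 41.6 at 2-4 h, 65.7 at 6-8 h and 32.8 at 16-18 h, and the cofactor gene exd was lower late as deposited, with 1215 at 2-4 h, 1080.1 at 6-8 h and 528 at 16-18 h. Under both other scalings exd came within 2-fold.

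Dorsoventral genes were mostly lower late. Of 34 members 20 were lower late and 3 higher, against 33.5% and 41.2% of all members (median log2 ratio -1.58, or -1.003 relative to all genes). Early falls numbered 10, against 8.5% of all members. The mesoderm gene twi was listed at 841 at 2-4 h, 112 at 6-8 h and 22.0 at 16-18 h, and sna, its partner, at 628 at 2-4 h, 317 at 6-8 h and 65.5 at 16-18 h. The genes of BMP signalling on the dorsal side scw (366 at 2-4 h, 0 at 6-8 h and 0 at 16-18 h) and tsg (313 at 2-4 h, 5.04 at 6-8 h and 0 at 16-18 h) were listed at 0 at 16-18 h, and the protease gene tld stood at 361 at 2-4 h, 141 at 6-8 h and 3.04 at 16-18 h. Steady genes of the list included the EGF protease gene rho, with 101 at 2-4 h, 162 at 6-8 h and 91.9 at 16-18 h, and the FGF receptor gene htl, with 84.1 at 2-4 h, 96.4 at 6-8 h and 72.1 at 16-18 h. Higher at the late stage were the neuregulin-like gene vn (20.9 at 2-4 h, 61.9 at 6-8 h and 66.5 at 16-18 h) and 2 genes of the Toll pathway, the NF-kappaB gene dl (19.2 at 2-4 h, 3.74 at 6-8 h and 217 at 16-18 h) and the ligand gene spz (50.4 at 2-4 h, 8.31 at 6-8 h and 105 at 16-18 h), both with a dip at 6-8 h. The pathway's inhibitor gene cact was lower late, with 3163 at 2-4 h, 1029 at 6-8 h and 734 at 16-18 h.

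Most targets of Notch signalling, which restricts neural fate to single cells, stood highest in the middle. Of 19 members of the Notch and E(spl) list, 13 had a transient peak, against 5.1% of all members, and 15 with equal upper quartiles. In the subset of 16 E(spl) complex and Bearded family genes, which was set after the values were seen, 12 did, and their median level was 137 FPKM at 2-4 h, 1125 at 6-8 h and 24.5 at 16-18 h. Among the bHLH repressor genes of the complex, HLHmgamma was listed at 99.3 at 2-4 h, 2006 at 6-8 h and 23.1 at 16-18 h and HLHmdelta at 30.1 at 2-4 h, 745 at 6-8 h and 4.06 at 16-18 h. Of the Bearded family, whose products restrain Neuralized, Brd stood at 1128 at 2-4 h, 3142 at 6-8 h and 8.46 at 16-18 h and Tom, the highest of the subset, at 3435 at 2-4 h, 6167 at 6-8 h and 36.6 at 16-18 h. The gene m1, which lies in the complex and encodes a protease-inhibitor-like protein, took another course, with 0 at 2-4 h, 109 at 6-8 h and 461 at 16-18 h. The receptor gene N (166 at 2-4 h, 540.3 at 6-8 h and 65.4 at 16-18 h) peaked as well, and the ligand gene Dl (519.7 at 2-4 h, 623 at 6-8 h and 52.5 at 16-18 h) stood at similar levels at 2-4 h and 6-8 h.

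Cell cycle and DNA replication genes were lower late nearly throughout. Of 45 members, 43 were lower at 16-18 h and 1 higher, against 33.5% and 41.2% of all members (median log2 ratio -3.14, or -2.57 relative to all genes). With equal upper quartiles 35 were still lower. Late falls numbered 39, against 23.4% of all members, and the median level of the 45 was 478 FPKM at 2-4 h, 556 at 6-8 h and 88.9 at 16-18 h. The mitotic cyclin gene CycB was listed at 6469.6 at 2-4 h, 4117 at 6-8 h and 780.1 at 16-18 h, the DNA polymerase clamp gene mus209 at 3315 at 2-4 h, 2447 at 6-8 h and 226 at 16-18 h and the replicative helicase gene Mcm7 at 2738 at 2-4 h, 2093 at 6-8 h and 249.8 at 16-18 h. Mitotic kinase genes had the steepest ratios, with 202 at 2-4 h, 277 at 6-8 h and 8.36 at 16-18 h for aur and 1245 at 2-4 h, 834 at 6-8 h and 41.2 at 16-18 h for ial. All 45 members stood at 5 FPKM or more at both ends.

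Of the 45 members 5 had a transient peak, against 5.1% of all members. The Cdc25 phosphatase gene stg, which times the patterned divisions of the embryo, was among them, with 277 at 2-4 h, 821 at 6-8 h and 119 at 16-18 h. The single gene higher late was dap, which encodes a Cdk inhibitor that stops the cycle, with 56.9 at 2-4 h, 1872 at 6-8 h and 135 at 16-18 h. The inhibitor gene rux (42.4 at 2-4 h, 201 at 6-8 h and 29.2 at 16-18 h) and rap (189 at 2-4 h, 529 at 6-8 h and 93.2 at 16-18 h), an activator of the anaphase-promoting complex, also peaked. The other Cdc25 gene, the maternal twe, was the single early fall, with 458 at 2-4 h, 189 at 6-8 h and 105 at 16-18 h. Sld5, a replication gene outside the list, had the smallest range of all genes at 50 FPKM or more throughout, with 389 at 2-4 h, 393 at 6-8 h and 391 at 16-18 h.

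Most ribosomal protein genes were steady. Of 81 cytosolic members 72 were steady, against 14.7% of all members, and those 72 had medians of 19451 FPKM at 2-4 h, 15624 at 6-8 h and 12228 at 16-18 h. Their list's median log2 ratio was -0.71 as deposited, -0.13 relative to all genes, and 0.23 with equal upper quartiles. RpL41 was the highest steady gene at 2-4 h, with 81653 at 2-4 h, 66299 at 6-8 h and 42635 at 16-18 h. The paralogs RpS5b and RpS5a differed: RpS5b was listed at 10708 at 2-4 h, 5361 at 6-8 h and 867 at 16-18 h and RpS5a at 4946 at 2-4 h, 7058 at 6-8 h and 9519.9 at 16-18 h. Reads of such close copies may be divided unevenly between them. Mitochondrial ribosomal protein genes were steady in 45 of 71 cases, against 14.7% of all members. As deposited 8 were higher and 7 lower late, against 41.2% and 33.5% of all members, but 25 were higher and 0 lower with equal upper quartiles.

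Proteasome genes, whose products degrade tagged proteins, were mostly lower late. Of 29 members 23 were lower late and 0 higher, against 33.5% and 41.2% of all members (median log2 ratio -2.67, or -2.09 relative to all genes). A split into core and regulatory particle, made after the values were seen, put all 12 core genes lower, 10 of them early falls, against 8.5% of all members, with a median log2 ratio of -3.43. Their median level was 2996 FPKM at 2-4 h, 769 at 6-8 h and 276 at 16-18 h, and the range of log2 ratios was -3.89 to -2.74. The catalytic subunit gene Prosbeta5 was listed at 3069 at 2-4 h, 779 at 6-8 h and 257 at 16-18 h. Of 16 regulatory particle genes, 10 were lower as deposited, with a median log2 ratio of -1.42 and a wider range, -3.22 to -0.24. With equal upper quartiles 16 of the 29 proteasome members were still lower. Of the regulatory genes, Pros26.4, Pros45, Rpn2, Rpn3, Rpn5, Rpn9 and Tbp-1 then came within 2-fold, while Rpn6, Rpn12 and Rpt4 stayed lower. The lid gene Mov34 peaked at 6-8 h, with 247 at 2-4 h, 675 at 6-8 h and 209.6 at 16-18 h, while the ATPase gene Rpt4 (2515 at 2-4 h, 758 at 6-8 h and 353 at 16-18 h) stood near the core genes at each stage.

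**Figure D3:**
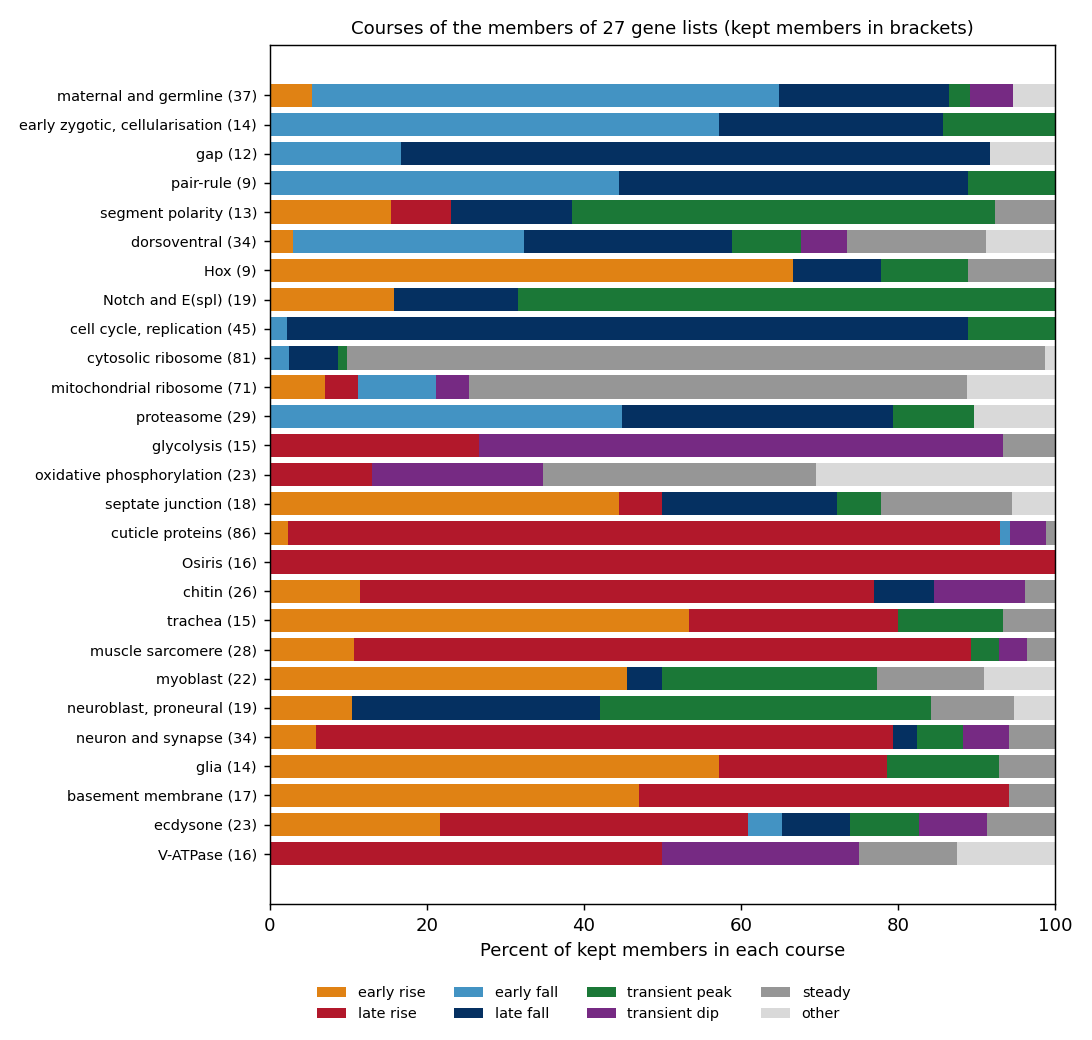
Stacked bars give the percent of the kept members of 27 gene lists (y axis, kept members in brackets) that took each course (colours). Late falls fill most of the cell cycle bar, the steady course most of the cytosolic ribosome bar, transient dips most of the glycolysis bar and late rises the cuticle, Osiris, sarcomere and synapse bars.

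Glycolytic genes were higher late and passed through a trough. Of 15 members 12 were higher at 16-18 h and 0 lower, against 41.2% and 33.5% of all members (median log2 ratio 1.39, or 1.97 relative to all genes). Transient dips numbered 10 of 15, against 5.07% of all members, and 7 with equal upper quartiles. The gene of phosphofructokinase, Pfk, which catalyses a committed step, was listed at 144 at 2-4 h, 11.9 at 6-8 h and 323 at 16-18 h. Aldolase (Ald) stood at 1147 at 2-4 h, 463 at 6-8 h and 3977 at 16-18 h, the dehydrogenase gene Gapdh1 at 426 at 2-4 h, 34.8 at 6-8 h and 1242 at 16-18 h and enolase (Eno) at 612 at 2-4 h, 62.1 at 6-8 h and 761 at 16-18 h. Hexokinase A (Hex-A), at the head of the pathway, had 111 at 2-4 h, 13.9 at 6-8 h and 270.2 at 16-18 h. Lactate dehydrogenase, listed as ImpL3, did not dip, with 47.0 at 2-4 h, 95.7 at 6-8 h and 1267 at 16-18 h, and Gpdh, a branch toward glycerol phosphate, was steady at 342 at 2-4 h, 281 at 6-8 h and 253 at 16-18 h. ERR, the nuclear receptor known to switch on glycolytic genes in Drosophila embryos, was an early rise, with 41.9 at 2-4 h, 128 at 6-8 h and 124 at 16-18 h.

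Most oxidative phosphorylation genes were not 2-fold apart between the ends. Of 23 members 3 were higher and 0 lower as deposited, against 41.2% and 33.5% of all members (median log2 ratio -0.23), and 7 were higher with equal upper quartiles. The ATP synthase gene blw was listed at 1975 at 2-4 h, 1252 at 6-8 h and 4726 at 16-18 h and cytochrome c, Cyt-c-p, at 3793 at 2-4 h, 1185 at 6-8 h and 2509 at 16-18 h. Of 16 genes of the V-ATPase, the proton pump of acidic compartments, 11 were higher late and 0 lower, against 41.2% and 33.5% of all members (median 1.16, or 1.74 relative to all genes). Late rises made up 8 of the 16, against 26.6% of all members, and dips 4, against 5.07%. Vha68-2 stood at 375 at 2-4 h, 108 at 6-8 h and 2189 at 16-18 h, and Vha16, the highest of them late, at 2440.4 at 2-4 h, 1645 at 6-8 h and 5316 at 16-18 h.

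Among muscle genes, many regulators and fusion genes were high by 6-8 h and most sarcomere genes after it. Of 22 myoblast genes 14 were higher late and 2 lower, against 41.2% and 33.5% of all members (median log2 ratio 1.92, or 2.49 relative to all genes). Early rises made up 10 of the 22, against 11.1% of all members, and transient peaks 6, against 5.1%. Of these 22 genes, 10 passed the minimum at 16-18 h alone. The differentiation factor gene Mef2 was listed at 70.6 at 2-4 h, 345 at 6-8 h and 302 at 16-18 h, and sns, whose product recognises founder cells, at 0.707 at 2-4 h, 115 at 6-8 h and 65.6 at 16-18 h. Him, which holds muscle progenitors back, peaked at 5.25 at 2-4 h, 423 at 6-8 h and 20.1 at 16-18 h. The fusion gene lmd, a transcription factor of fusion-competent cells, was above 5 FPKM at 6-8 h alone and so no member, with 1.48 at 2-4 h, 365 at 6-8 h and 3.53 at 16-18 h. Of 28 sarcomere genes 26 were higher late, against 41.2% of all members, and 22 were late rises, against 26.6% (median 5.83, or 6.41 relative to all genes). Of the 28 sarcomere genes, 14 passed the minimum at 16-18 h alone. Actin 57B, Act57B, was listed at 262 at 2-4 h, 1729.8 at 6-8 h and 58553 at 16-18 h. The regulatory myosin light chain gene Mlc2 stood at 7.57 at 2-4 h, 52.9 at 6-8 h and 11238 at 16-18 h, and the tropomyosin gene Tm2 at 3.94 at 2-4 h, 20.8 at 6-8 h and 4587 at 16-18 h. The giant filament genes sls (0.431 at 2-4 h, 33.3 at 6-8 h and 329 at 16-18 h) and bt (0.548 at 2-4 h, 2.38 at 6-8 h and 451 at 16-18 h) reached lower levels per length.

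A pair of sarcomere genes went against the list. Mhc, the muscle myosin heavy chain gene, was listed at 3.98 at 2-4 h, 29.4 at 6-8 h and 0 at 16-18 h and so was no member, and the troponin T gene up stood at 10.97 at 2-4 h, 43.4 at 6-8 h and 0 at 16-18 h. Tm1 was listed at 0 at 2-4 h, 0 at 6-8 h and 5879.96 at 16-18 h. Genes of the same filaments, such as Mlc2 and Tm2, were among the most abundant at 16-18 h, so a listed 0 does not show that a transcript was absent, and no ratio is given against it.

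Genes of neural precursors stood high at 6-8 h. Of 19 neuroblast and proneural genes 8 had a transient peak, against 5.1% of all members. Between the ends 6 were higher and 8 lower as deposited, near the 41.2% and 33.5% of all members. With equal upper quartiles 8 were higher and 6 lower, so the direction of the list turned with the scaling. The neuroblast gene wor was listed at 5.40 at 2-4 h, 339 at 6-8 h and 19.4 at 16-18 h, the temporal factor gene cas at 27.7 at 2-4 h, 339 at 6-8 h and 64.03 at 16-18 h and nerfin-1, active in newborn neurons, at 2.65 at 2-4 h, 351 at 6-8 h and 48.1 at 16-18 h. Neuroblast genes mira (1629 at 2-4 h, 1699 at 6-8 h and 101 at 16-18 h) and dpn (314 at 2-4 h, 398 at 6-8 h and 26.3 at 16-18 h) were late falls. The pan-neuronal RNA-binding gene elav peaked too, with 65.9 at 2-4 h, 469 at 6-8 h and 208 at 16-18 h.

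Most synapse and channel genes were late rises. Of 34 members of the neuron and synapse list 31 were higher late and 1 lower, against 41.2% and 33.5% of all members, and 25 were late rises, against 26.6%. At 2-4 h 19 were listed at 0, and the median log2 ratio of the 15 others was 3.64, or 4.22 relative to all genes. Of the 34, 27 passed the minimum at 16-18 h alone. The vesicle fusion gene n-syb was listed at 0 at 2-4 h, 2.23 at 6-8 h and 432 at 16-18 h, the calcium sensor gene Syt1 at 0 at 2-4 h, 1.45 at 6-8 h and 265 at 16-18 h and the active zone gene brp at 0 at 2-4 h, 0.947 at 6-8 h and 135 at 16-18 h. Transmitter genes had the same course, with 0 at 2-4 h, 0 at 6-8 h and 126 at 16-18 h for the glutamate transporter gene VGlut, 0 at 2-4 h, 1.77 at 6-8 h and 170.2 at 16-18 h for the acetylcholine transporter gene VAChT and 0 at 2-4 h, 1.07 at 6-8 h and 148 at 16-18 h for Gad1, which makes GABA. Syx1A, a fusion gene used outside neurons as well, was steady at 198 at 2-4 h, 144 at 6-8 h and 198 at 16-18 h. Of 14 glial genes 12 were higher and 0 lower, against 41.2% and 33.5% of all members, and 8 were early rises, against 11.1%: the glial master gene repo was listed at 0.923 at 2-4 h, 48.2 at 6-8 h and 87.6 at 16-18 h, and the transporter gene Eaat1, of mature glia, at 0 at 2-4 h, 1.48 at 6-8 h and 113 at 16-18 h. Of the 14 glial genes, 6 passed the minimum at 16-18 h alone.

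Of 26 neuropeptide genes 22 were higher late and 3 lower, against 41.2% and 33.5% of all members, most at low levels, such as Pdf (0 at 2-4 h, 0 at 6-8 h and 34.7 at 16-18 h) and Akh (0 at 2-4 h, 0 at 6-8 h and 27.4 at 16-18 h). The exception in level was Nplp2, with 55.4 at 2-4 h, 4218 at 6-8 h and 11631 at 16-18 h. The insulin-like gene Ilp4 was lower late, with 1503 at 2-4 h, 554 at 6-8 h and 78.9 at 16-18 h. Of the 26 neuropeptide genes, 18 passed the minimum at 16-18 h alone. Of 234 odorant, gustatory and ionotropic receptor, odorant-binding protein and ppk channel genes in the table, 41 passed the minimum, 26 of them higher and 10 lower late, against 41.2% and 33.5% of all members, and Obp99a had a peak of another order, with 119.9 at 2-4 h, 11147 at 6-8 h and 1315 at 16-18 h.

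Epithelial junction genes were in part high by 6-8 h. Of 18 septate junction genes 10 were higher late and 4 lower, against 41.2% and 33.5% of all members (median log2 ratio 1.20, or 1.78 relative to all genes). Early rises numbered 8, against 11.1% of all members. These junctions seal epithelia in insects. The scaffold gene cora was listed at 7.36 at 2-4 h, 213 at 6-8 h and 825 at 16-18 h, Nrx-IV, a core membrane protein, at 57.3 at 2-4 h, 443 at 6-8 h and 435 at 16-18 h and the sodium pump gene nrv2 at 56.5 at 2-4 h, 1133 at 6-8 h and 876 at 16-18 h. Lac (2743 at 2-4 h, 1964 at 6-8 h and 575 at 16-18 h) and Nrt (3388 at 2-4 h, 1661 at 6-8 h and 453 at 16-18 h) were lower late.

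Nearly all cuticle protein genes above the minimum were higher late. Of 116 cuticle protein genes in the table, 86 passed the minimum, 76 of them at 16-18 h alone. Higher late were 83 and lower 1, against 41.2% and 33.5% of all members, with 78 late rises, against 26.6%, and 62 were listed at 0 at 2-4 h. All 24 Tweedle members were late rises, with a median of 0 FPKM at 2-4 h, 5.63 at 6-8 h and 1413 at 16-18 h. For the 43 members of the Cpr family, the medians were 0 at 2-4 h, 0 at 6-8 h and 169.8 at 16-18 h, and Cpr65Ea, the highest, was listed at 9.14 at 2-4 h, 57.7 at 6-8 h and 13958 at 16-18 h. Near-identical copies such as Lcp65Ag1, Lcp65Ag2 and Lcp65Ag3, listed between 2766 and 3341 at 16-18 h, cannot be told apart with certainty.

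All 16 Osiris members were late rises, against 26.6% of all members. Of these 16, 14 passed the minimum at 16-18 h alone and so were members through the stage at which they were higher. This insect gene family encodes membrane proteins of cuticle-secreting cells. Osi6 was listed at 13.8 at 2-4 h, 157 at 6-8 h and 16467 at 16-18 h, Osi7 at 0 at 2-4 h, 85.1 at 6-8 h and 9613 at 16-18 h and Osi15 at 6.29 at 2-4 h, 29.4 at 6-8 h and 9242 at 16-18 h. Of 26 chitin genes 21 were higher late and 2 lower, against 41.2% and 33.5% of all members (median log2 ratio 5.05, or 5.63 relative to all genes): the synthase gene kkv was listed at 4.04 at 2-4 h, 12.8 at 6-8 h and 430.01 at 16-18 h, the deacetylase gene serp at 4.77 at 2-4 h, 14.5 at 6-8 h and 2424 at 16-18 h and Gasp, a chitin-binding protein of the trachea, at 11.2 at 2-4 h, 24.5 at 6-8 h and 8121 at 16-18 h. Of the 26 chitin genes, 14 passed the minimum at 16-18 h alone. The gene mmy, which makes the activated sugar for chitin, was an early rise, with 7.41 at 2-4 h, 83.2 at 6-8 h and 587 at 16-18 h. The growth factor-like gene Idgf4, of the chitinase family, dipped, with 3082 at 2-4 h, 637 at 6-8 h and 3187 at 16-18 h. Of 18 tanning and pigment genes 15 were higher, against 41.2% of all members: tyrosine hydroxylase, ple, stood at 0 at 2-4 h, 0 at 6-8 h and 131 at 16-18 h, and Ddc, which makes dopamine, at 0 at 2-4 h, 0 at 6-8 h and 96.2 at 16-18 h. In contrast yellow-e3 peaked at 6-8 h, with 179 at 2-4 h, 413 at 6-8 h and 1.83 at 16-18 h. Of the 18 tanning and pigment genes, 11 passed the minimum at 16-18 h alone. The zona pellucida domain gene dyl, of epidermal cell extensions, was listed at 0 at 2-4 h, 14.2 at 6-8 h and 2018 at 16-18 h.

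**Figure D4:**
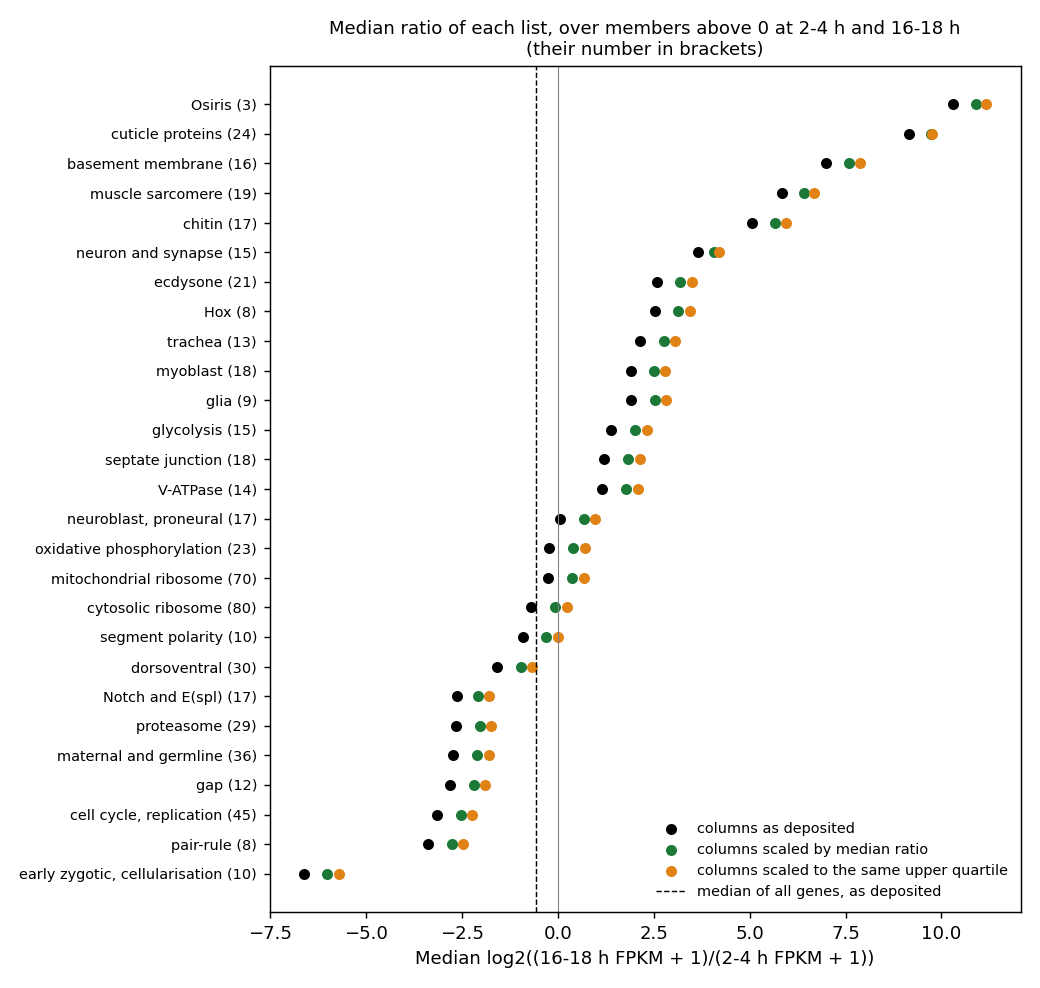
For 27 gene lists (y axis, members above 0 at both ends in brackets), points give the median log2 ratio of 16-18 h to 2-4 h (x axis) with columns as deposited, scaled by median ratio and scaled to the same upper quartile. The dashed line is the median of all genes at -0.58. Scaling shifts all lists by similar amounts, so their order is nearly fixed in advance. The ribosome, oxidative phosphorylation and segment polarity lists lie where scaling moves them to or across 0.

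Basement membrane genes had a median log2 ratio of 6.99, or 7.56 relative to all genes. Of 17 members 16 were higher late and 0 lower, against 41.2% and 33.5% of all members, 8 as early rises, against 11.1%, and 8 as late rises, against 26.6%. Of the 17, 8 passed the minimum at 16-18 h alone. Laminins came first: all 4 laminin genes were early rises, and LanA was listed at 15.1 at 2-4 h, 1122 at 6-8 h and 1428 at 16-18 h. Collagen IV came later, with 2.50 at 2-4 h, 25.9 at 6-8 h and 3609 at 16-18 h for Cg25C and 1.47 at 2-4 h, 14.0 at 6-8 h and 2291 at 16-18 h for vkg. The perlecan gene trol (1.101 at 2-4 h, 4.91 at 6-8 h and 746 at 16-18 h) and SPARC, listed as BM-40-SPARC (11.4 at 2-4 h, 61.2 at 6-8 h and 2251 at 16-18 h), were late as well, whereas nidogen, Ndg (1.35 at 2-4 h, 154 at 6-8 h and 1867 at 16-18 h), was early. The integrin beta gene mys was steady at 371 at 2-4 h, 473 at 6-8 h and 689 at 16-18 h.

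In the trachea list 13 of 15 members were higher and 0 lower, against 41.2% and 33.5% of all members, 8 as early rises, against 11.1%, among them the master gene trh (2.35 at 2-4 h, 149.5 at 6-8 h and 87.0 at 16-18 h) and the FGF ligand gene bnl (9.70 at 2-4 h, 80.7 at 6-8 h and 42.1 at 16-18 h). The haemocyte list had 6 of 12 higher and 3 lower, near the 41.2% and 33.5% of all members, with the peroxidase gene Pxn at 1.95 at 2-4 h, 96.1 at 6-8 h and 359 at 16-18 h and Sr-CII the furthest below. Its median turned sign with the scaling. In the salivary gland list 7 of 9 members were higher, against 41.2% of all members, with CrebA, a regulator of secretion, at 17.3 at 2-4 h, 240.3 at 6-8 h and 138 at 16-18 h, and no glue gene among 6 in the table passed the minimum. In the fat body list 8 of 12 were higher, against the same 41.2%, led by the lipophorin gene Rfabg (5.10 at 2-4 h, 619 at 6-8 h and 2471 at 16-18 h), and of the larval serum protein genes Lsp1gamma alone passed the minimum (2.10 at 2-4 h, 1.84 at 6-8 h and 5.56 at 16-18 h). Gut regulators took mixed courses: the midgut factor gene GATAe was an early rise (4.01 at 2-4 h, 82.6 at 6-8 h and 195 at 16-18 h), fkh peaked (183 at 2-4 h, 421 at 6-8 h and 125 at 16-18 h) and byn, of the hindgut, was an early fall (161 at 2-4 h, 55.5 at 6-8 h and 26.6 at 16-18 h). Of 36 digestive enzyme genes 11 passed the minimum, all through the 16-18 h value and all listed at 0 at 2-4 h, with Jon65Aiii the highest (0 at 2-4 h, 0 at 6-8 h and 332 at 16-18 h). Passing at 16-18 h alone were also 5 of 15 trachea, 6 of 12 haemocyte, 5 of 9 salivary gland and 4 of 12 fat body members.

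Genes of ecdysone synthesis and of the response to this steroid took different courses. Of 23 members 16 were higher late and 4 lower, against 41.2% and 33.5% of all members (median log2 ratio 2.57, or 3.15 relative to all genes). The 4 lower ones, spo, dib, sad and phm, all encode enzymes of ecdysone synthesis, and dib was listed at 241 at 2-4 h, 149 at 6-8 h and 3.51 at 16-18 h and phm at 214 at 2-4 h, 14.6 at 6-8 h and 37.4 at 16-18 h. Response genes were higher, with 1.16 at 2-4 h, 3.41 at 6-8 h and 110.4 at 16-18 h for Eip74EF and 0.725 at 2-4 h, 3.14 at 6-8 h and 136 at 16-18 h for Eip78C. So was Cyp18a1, whose product inactivates the hormone (5.09 at 2-4 h, 4.66 at 6-8 h and 573 at 16-18 h). The nuclear receptor gene ftz-f1, known both as a maternal partner of Ftz and as a late response gene, dipped at 6-8 h, with 409 at 2-4 h, 162 at 6-8 h and 1622 at 16-18 h. The receptor genes EcR (182 at 2-4 h, 218 at 6-8 h and 194 at 16-18 h) and usp (82.95 at 2-4 h, 131 at 6-8 h and 95.96 at 16-18 h) were steady.

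Of 57 cytochrome P450 genes 45 were higher late and 7 lower, against 41.2% and 33.5% of all members, and 37 were late rises, against 26.6%. Also 37 of the 57 passed the minimum at 16-18 h alone. Of 20 glutathione transferase genes 12 were higher and 4 lower, against the same 41.2% and 33.5%. Heat shock genes had no common course: Hsp27 was listed at 968 at 2-4 h, 578 at 6-8 h and 74.3 at 16-18 h, Hsp60 at 153 at 2-4 h, 395 at 6-8 h and 1432 at 16-18 h and Hsp83, steady, at 1271 at 2-4 h, 1309.8 at 6-8 h and 1109 at 16-18 h. Of 26 immune peptide and recognition genes 8 passed the minimum, with PGRP-LA the furthest apart (0 at 2-4 h, 0 at 6-8 h and 124 at 16-18 h) and the peptide gene Drs at 0 at 2-4 h, 19.7 at 6-8 h and 5.98 at 16-18 h.

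Actin and tubulin genes took different courses within their families. The muscle actins Act57B, Act87E, Act79B and Act88F were higher late, and the cytoplasmic actin gene Act5C was lower, with 16287 at 2-4 h, 11023 at 6-8 h and 7793 at 16-18 h. Levels of these near-identical coding sequences carry reads that may be shared. Of the tubulins, alphaTub84B (21343 at 2-4 h, 23801 at 6-8 h and 8703 at 16-18 h) and betaTub56D (24325 at 2-4 h, 20105 at 6-8 h and 4775 at 16-18 h) were lower and alphaTub85E (66.0 at 2-4 h, 86.7 at 6-8 h and 495 at 16-18 h) and betaTub60D (258 at 2-4 h, 1454 at 6-8 h and 851 at 16-18 h) higher. With equal upper quartiles Act5C and alphaTub84B came within 2-fold. The maternal genes alphaTub67C (46.1 at 2-4 h, 3.99 at 6-8 h and 0 at 16-18 h) and gammaTub37C (22.0 at 2-4 h, 8.04 at 6-8 h and 0 at 16-18 h) were listed at 0 late.

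The transient genes furthest from their ends were of other kinds. The peaks furthest above both ends were CG4844 (3.50 at 2-4 h, 1214 at 6-8 h and 27.2 at 16-18 h), the transporter genes Oatp58Dc (5.81 at 2-4 h, 890.5 at 6-8 h and 22.4 at 16-18 h) and Smvt (14.2 at 2-4 h, 427 at 6-8 h and 13.1 at 16-18 h) and spdo (6.53 at 2-4 h, 504 at 6-8 h and 14.7 at 16-18 h), which acts on Notch in asymmetric divisions. The deepest dips were in UK114 (409 at 2-4 h, 7.78 at 6-8 h and 376 at 16-18 h), CG12512 (48.8 at 2-4 h, 1.19 at 6-8 h and 51.4 at 16-18 h), the kinase gene Pka-C3 (204 at 2-4 h, 3.85 at 6-8 h and 96.6 at 16-18 h) and the lipophorin receptor gene LpR1 (71.3 at 2-4 h, 3.14 at 6-8 h and 86.4 at 16-18 h). Of 517 dips, 93 rested on a listed value of 0 at 6-8 h.

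Values of 0 at 2-4 h need a separate reading. Of the 2172 members listed at 0 there, 1275 were also listed at 0 at 6-8 h and 897 were not, and their median at 16-18 h was 42.7 FPKM. Some belong to genes that every cell uses. The translation factor gene eIF-4a was listed at 0 at 2-4 h, 0 at 6-8 h and 7295 at 16-18 h, the poly(A)-binding protein gene pAbp at 0 at 2-4 h, 0 at 6-8 h and 2872 at 16-18 h and the chaperone gene Hsc70-4 at 0 at 2-4 h, 0 at 6-8 h and 6044 at 16-18 h. For such genes a listed 0 cannot be read as absence, and their place among the late rises is uncertain. At 16-18 h the highest early genes listed at 0 were SNCF (5676 at 2-4 h), CG34214, halo and CG14317, and SNCF stood at 22.1 at 6-8 h.

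The courses were followed into later tissues, the leg, haltere and wing discs of larvae and the same appendages of pharate adults, of a y;cn,bw,sp strain. Those tables were scaled separately, so genes were only counted as present at 5 FPKM or more in any of 3 tissues. Late-rise genes were present in a disc in 51.8% of cases and in a pharate appendage in 73.6%, against 80.1% and 84.6% of all members, and 19.9% were in neither. Of the 2708 late rises, 1776 were listed at 0 at 2-4 h. The 2172 members listed at 0 there, of any course, were present in a disc in 48.7% of cases and in a pharate appendage in 65.5%. Whether the low shares belong to the late course was not tested. Of the late rises, 766 were present in pharate appendages alone and 177 in discs alone. Late-fall genes were present in a disc in 94.9% and in a pharate appendage in 88.8%, and all 45 cell cycle members in a disc and 31 in a pharate appendage. Of 34 neuron and synapse members, 7 were present in a disc and 27 in a pharate appendage. These counts depended on the level: at 1 FPKM all 45 cell cycle members were present in a pharate appendage, and at 20 FPKM 17. At 1 FPKM 19 of the 34 neuron and synapse members were present in a disc.

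Of 86 cuticle protein members 49 were present in a disc, 67 in a pharate appendage (77.9%, against 73.6% of late rises) and 10 in neither. Of 16 Osiris members 3 were present in a disc, 6 in a pharate appendage and 9 in neither. TwdlF was listed at 0 in all discs and pharate appendages, and Osi6 at up to 1.35 FPKM in discs and 4.17 in pharate appendages. Cpr65Ea reached 0 in discs and 124 in pharate appendages. For comparison, Cpr64Ac was listed at 7.42 in the 16-18 h embryo and at up to 137273 in pharate appendages, and Lcp3 at 13.02 in the 16-18 h embryo and up to 91174 in discs.

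**Figure D5:**
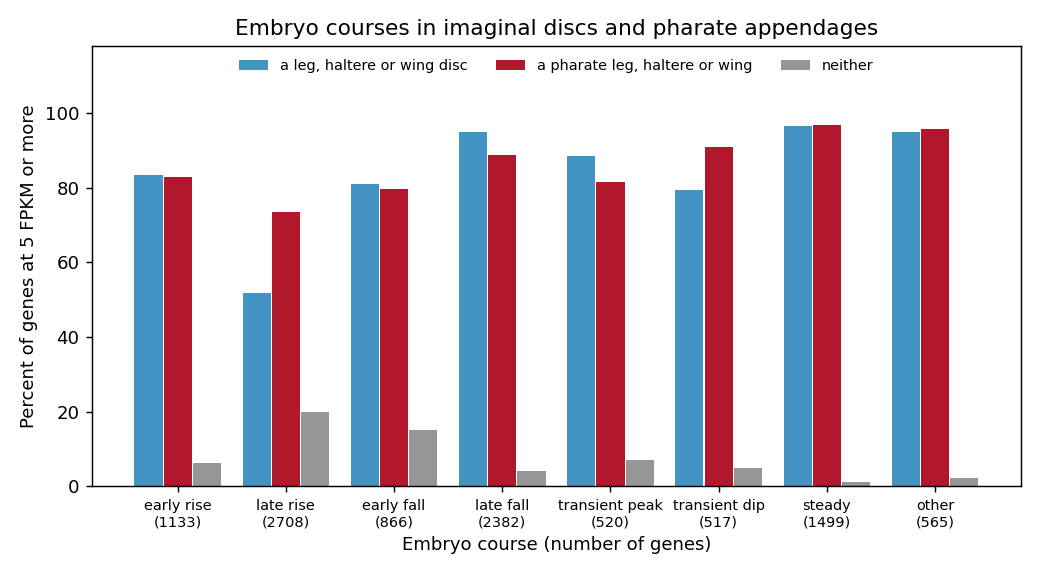
Bars give the percent of genes of each embryo course (x axis, number of genes in brackets) listed at 5 FPKM or more in at least 1 leg, haltere or wing disc, in at least 1 pharate appendage, or in neither. The late rise has the lowest bar for discs, at 51.8%, and the highest for neither, at 19.9%.

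Runs of genes in the same direction were counted along the gene order, as a description. In the RefSeq gene order of the Release 6 assembly, 9677 members could be placed, and their neighbours here are the next members along an arm. Runs of at least 4 members in a row that were higher at 16-18 h numbered 280 and held 1659 genes, 42.6% of the placed higher genes, while runs of lower genes numbered 155 and held 726, or 21.9%. The longest runs of members had 27 genes, against 11 with all genes of the table placed in order. One run of 27 members on arm 2R went from Tsp42Ea to Gadd45 and held a cluster of tetraspanin genes, and one on 3L from CG13055 to CG33257 held genes with CG numbers, 26 of its 27 listed at 0 at 2-4 h. A run of 22 on 2L ran from CG5261 to CG7179. The longest run of lower genes had 10, from cni to CG5888 on 2L. Runs of 19 and 18 genes on 3R held Osi2 to Osi12 and the Tweedle genes from TwdlM to TwdlQ. With all genes placed, the runs held 837 higher and 623 lower genes.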

How the data were processed

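RNA-seq of the 3 embryo stages was used from 1 table. The authors deposited gene levels as FPKM, 1 value per gene and stage, per the file headers, and the titles place 2 replicates behind each column. TopHat 1.1.4, Cuffdiff, Bowtie 0.12.3, CASAVA 1.7 and MACS2, with build dm3, are named in the submitters' processing notes, with no roles. The scaling of the columns, the strand setting and the number of reads are not given in the sources used here. Summed FPKM of members was 3.49e+06 at 16-18 h and 4.68e+06 at 2-4 h, so the scale of the values is uncertain, and depth is unknown. Genes that overlap, antisense genes and near-identical copies cannot be told apart with certainty.

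The table held 13934 entries with 13763 names; 248 entries carrying 77 repeated names were left out. Ratios are log2((FPKM + 1)/(FPKM + 1)), for genes at 5 FPKM or more in either end column, computed with Python 3.11.15, pandas 2.3.3 and NumPy 2.4.6. Nothing was tested between stages, as each had 1 value. The sorting code was run on made-up genes without noise, each set inside 1 course, and returned those courses. That checks the code and not how reliably real genes were sorted. Medians of lists cover members above 0 at both ends. The members, the 43 gene lists, whose symbols followed RefSeq synonyms, and the naming rule were chosen with earlier results of these data known. That rule took the 12 largest and 12 smallest ratios at 10 FPKM or more, the 2 to 4 members furthest apart per list, the 4 furthest per course, the 4 highest genes listed at 0 at the other end, 22 fixed genes and the longest neighbour runs. Gene order came from RefSeq of Release 6, to which 12887 of 13686 names matched; no coordinates were taken from it. Peak lists were not used, and promoters were not analysed here. Alternatives changed the pseudocount, the minimum, the fold, the course limits, the scaling, the treatment of repeated names, the level counted as present in later tissues and the genes placed in order.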

Additional observations from a re-analysis of the deposited data

How the results depend on the processing

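No paired analysis was possible because each stage has 1 pooled column. Genes lower late numbered 1954 (1776 of them above 0 at both ends) with columns scaled to the same upper quartile and 1864 (1653) at 4-fold, where 1330 genes above 0 at both ends were higher. The median log2 ratio of genes above 0 at both ends, -0.58 as deposited, was 0.36 with equal upper quartiles and 0.0499 with columns scaled by median ratio, and higher genes made up 62.7% and 53.5% of those apart, against 38.7% as deposited. Early falls numbered 469 with equal upper quartiles and late falls 1333, and late falls 1475 under the median ratio. At 4-fold there were 464 early falls, 1382 late falls, 99 transient peaks, 177 transient dips and 4159 steady genes. With early at 75% or more and late at 25% or less, 734 early rises, 393 early falls and 1389 late falls were left, and 965 rises and 1466 falls were gradual. Late rises were present in a disc in 64.2% of cases at 1 FPKM and 37.4% at 20 FPKM, and in a pharate appendage in 80.5% and 60.3%. With all genes placed, 837 genes were in runs higher late and the longest run had 11. Counts under the other pseudocounts and minimums, with repeated names summed and with genes kept through 6-8 h stayed within 1.5 times of those reported. Motifs in promoters were not run. Depth is unknown, so the limit of detection behind a listed 0 cannot be given.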
